A study of Homo sapiens with 2 samples.

Results

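Metallothioneins, their zinc-sensing activator MTF1 and the zinc exporter SLC30A1 were compared in HepG2, which the study lists among human hepatocellular carcinoma lines. The aim was to describe how zinc buffering genes differed under fluid shear stress (FSS), the force that flow exerts along the cell surface. The FSS group was HepG2 cells under FSS for 8 h, and the static group was the same line cultured without flow. Both were at passage 10 to 15, and each group was 1 library in which 3 replicates were mixed. The data therefore hold 2 libraries, and no difference has a replicate check. Genes were taken by name (MT1 plus a letter, MT2A, MTF1 and SLC30A1), and the set itself was chosen by its values in this same comparison, which are therefore a description with no test. This gave 8 genes of 11589, namely 6 metallothioneins (MT1B, MT1E, MT1F, MT1G, MT1X and MT2A), MTF1 and SLC30A1, with 13 of 34714 transcripts. MT1A, MT1H and MT1M, further metallothionein genes of the cluster, and MT3 and MT4 were not analysed here.

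Metallothioneins are short, cysteine-rich proteins that hold zinc and copper ions in clusters of sulfur atoms, and they also bind cadmium. In liver they are known as a store and buffer of zinc, and their transcripts are induced by metals, glucocorticoids, inflammatory signals and oxidants. MTF1 is a zinc finger transcription factor that binds metal response elements (MREs) in DNA when free zinc is raised. SLC30A1 encodes ZnT1, which moves zinc out of the cell across the plasma membrane and is a known target of MTF1.

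Promoters are shown because the 2 most abundant metallothioneins, the near-silent MT1B and SLC30A1 differ in how many MRE cores they hold. The sequences are the 250 bases before the start site in RefSeq on GRCh38.p14, a later build than the hg19 of the deposited values, written 5′ to 3′ on the strand of the gene. GENCODE 29 starts MT1X further upstream than RefSeq does. Of the 8 genes 5 had an entry, and MT1E, MT1F and MT1G had none. Capitals mark the MRE core, searched as TGCACNC or TGCGCNC on both strands, with each match counted even where matches overlap.
MT2A promoter (chr16:56608334-56608583, plus strand): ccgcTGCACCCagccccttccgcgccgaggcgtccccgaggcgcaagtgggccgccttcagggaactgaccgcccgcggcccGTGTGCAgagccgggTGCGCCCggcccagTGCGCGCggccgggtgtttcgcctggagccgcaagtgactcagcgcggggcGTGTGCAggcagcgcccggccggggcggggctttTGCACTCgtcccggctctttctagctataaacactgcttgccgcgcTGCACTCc
MT1X promoter (chr16:56682220-56682469, plus strand): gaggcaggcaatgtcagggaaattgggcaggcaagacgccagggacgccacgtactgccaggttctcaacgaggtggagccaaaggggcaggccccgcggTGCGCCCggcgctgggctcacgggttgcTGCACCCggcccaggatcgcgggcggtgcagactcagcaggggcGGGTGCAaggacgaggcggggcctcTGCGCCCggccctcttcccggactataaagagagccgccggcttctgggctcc
MT1B promoter (chr16:56651636-56651885, plus strand): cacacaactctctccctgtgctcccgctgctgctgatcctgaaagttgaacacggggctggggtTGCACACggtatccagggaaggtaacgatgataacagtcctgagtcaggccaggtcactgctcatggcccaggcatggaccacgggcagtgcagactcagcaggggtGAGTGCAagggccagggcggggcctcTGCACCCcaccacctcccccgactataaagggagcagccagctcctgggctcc
SLC30A1 promoter (chr1:211579162-211579411, minus strand): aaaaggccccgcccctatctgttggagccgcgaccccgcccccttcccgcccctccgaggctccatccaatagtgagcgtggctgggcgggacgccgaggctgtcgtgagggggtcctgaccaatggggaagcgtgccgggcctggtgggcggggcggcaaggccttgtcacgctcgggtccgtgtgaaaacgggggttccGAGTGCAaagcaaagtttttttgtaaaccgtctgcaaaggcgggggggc

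The MT2A promoter held 7 MRE cores, that of MT1X 4, that of MT1B 3, that of SLC30A1 1 and that of MTF1 0. At least 1 core was present in 24.8% of 35116 RefSeq promoters of the same length, at least 3 in 1.58%, at least 4 in 0.370% and at least 7 in 0.0313%. A core lay 54 to 48 bases before the start site in MT2A, 53 to 47 bases before it in MT1X and MT1B, and 49 to 43 bases before it in SLC30A1. The 3 metallothionein promoters each held 1 TATAAA, which 10.7% of promoters had in at least 1 copy, and the other 2 held 0. The antioxidant response element core TGACNNNGC, the letters bound by NRF2 with its partners, occurred 1 time in each of MT2A, MT1X, MT1B and SLC30A1 and 0 times in MTF1, against 10.9% of promoters with at least 1. The heat shock element core TTCNNGAA occurred in 0 of the 5 windows and in 6.62% of promoters. A match is a description of letters, and binding was not measured.

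**Figure D1:**
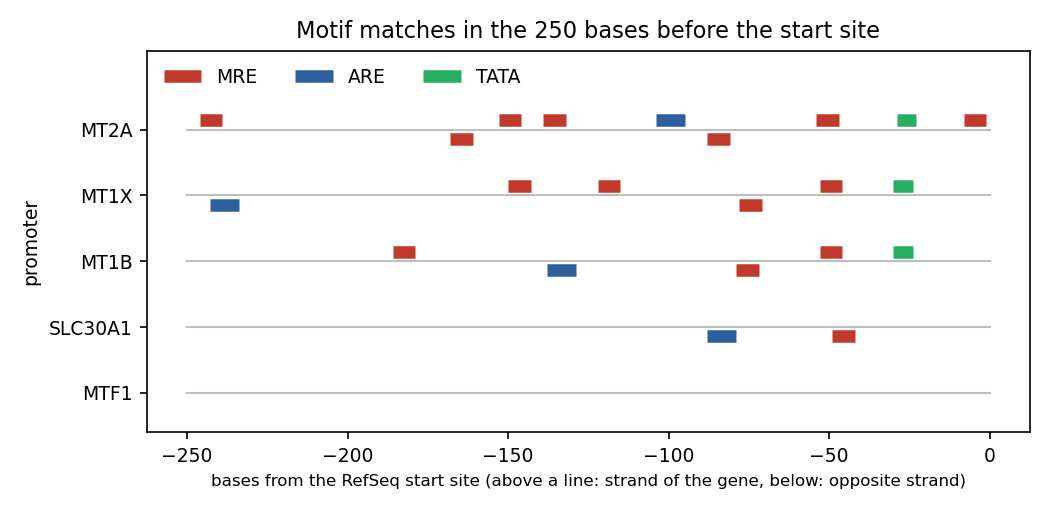
Motif matches in the 250 bases before the RefSeq start site of 5 genes, with the x axis in bases from the start site. Marks are MRE cores (red), antioxidant response element cores (blue) and TATAAA (green), drawn above the line on the strand of the gene and below it on the opposite strand, and MT2A carries 7 red marks, MT1X 4, MT1B 3, SLC30A1 1 and MTF1 0.

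Expression was deposited per transcript as FPKM, which scales fragments to transcript length and to each 1000000 that mapped, and a gene's level is the sum over its transcripts. Over the whole table FSS cells had 323352 FPKM and static cells 325712 FPKM. How deeply either library was sequenced is unknown. The log2 ratio is that of FPKM + 1 in FSS over static cells. A level of 0.5 FPKM in either library was required, which 11221 genes met. Of these 10.5% were higher in FSS by 1.5-fold or more and 29.5% were lower by as much, and the median log2 ratio was -0.25. Centring on the median over genes that reached 5 FPKM in a library adds 0.23 to each log2 ratio, and then 2002 genes were higher and 2012 lower. Of 14 hepatocyte markers 2 were analysed here, FOXA1 at 7.41 FPKM in FSS and 5.69 FPKM in static cells, and AMBP, a plasma protein gene of hepatocytes, at 0.0580 FPKM in FSS cells and listed at 0 in static cells. For the liver label, 1 of the 2 measured markers was thus at or near 0 in both libraries, and FOXA1 was above 5 FPKM in both. All 14 were looked for, and only these 2 had an entry among the 11589 genes used here. Albumin and the other markers had none, and what that absence means was not tested. Of 5 fibroblast markers 3 were analysed here, and they summed to 12.2 FPKM in FSS and 41.7 FPKM in static cells, with COL1A1, a collagen gene, at 5.15 FPKM in FSS and 28.0 FPKM in static cells, a difference whose part in the values below was not tested. In bulk RNA, fewer cells of a type and less RNA per cell cannot be told apart. Of 4 endothelial markers only CDH5 was analysed here, at 0.634 FPKM in FSS and 0.818 FPKM in static cells, and none of 4 leukocyte markers was.

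All 6 metallothioneins had higher FPKM in the FSS library. Their summed level was 1232 FPKM in FSS cells and 177 FPKM in static cells, a 6.96-fold higher sum and a log2 ratio of 2.79. The family took 0.381% of all listed FPKM in FSS cells and 0.0544% in static cells. Past 1.5-fold, 7 of the 8 genes were higher and 0 lower, beside the 10.5% and 29.5% of all genes, and nothing is read from that count because the same contrast chose the set. MT1B, MT1F and MT1G reached 0.5 FPKM only in the FSS library.

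**Figure D2:**
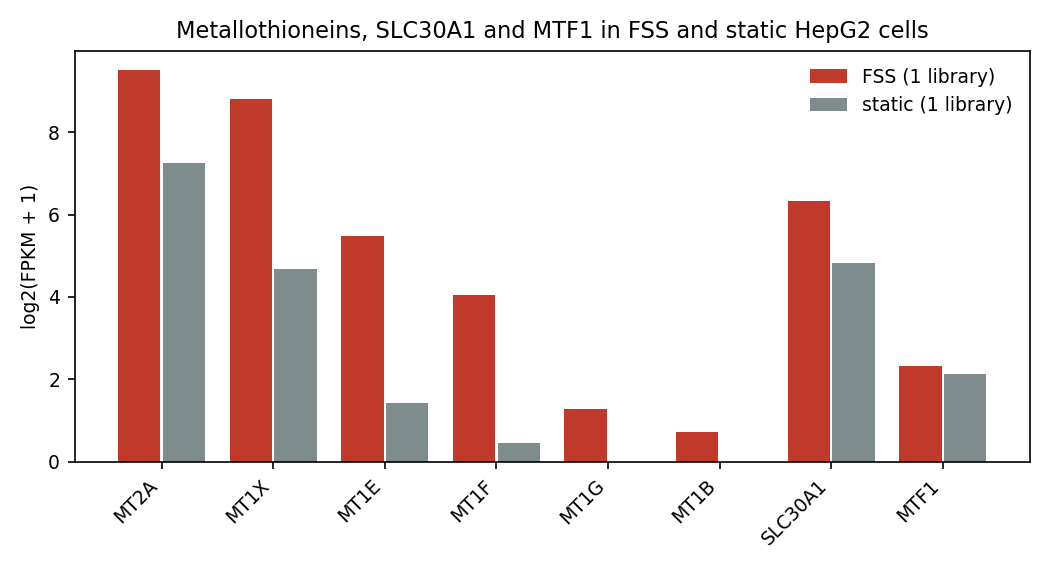
Level of each gene as log2(FPKM + 1), with FSS (red) left of static (grey), 1 library each and no error bars. MT2A is highest in both libraries, at 725 FPKM in FSS and 150.5 FPKM in static cells, MT1G and MT1B are listed at 0 in static cells, and the MTF1 bars are nearly level.

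MT2A (ENSG00000125148.6_2), the most abundant metallothionein and a widely expressed one, was at 725 FPKM in FSS cells and 150.5 FPKM in static cells. It was already among the higher genes of static cells, with level rank 43 of 11589 in FSS and 292 in static cells. Its log2 ratio of 2.26 was rank 56 of 11221. Nearly all of it was transcript MT2A-201, at 712 FPKM in FSS and 149 FPKM in static cells, while MT2A-202 was at 12.3 FPKM in FSS and 1.56 FPKM in static cells.

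MT1X (ENSG00000187193.8_3) had the highest log2 ratio of the family on the FPKM + 1 scale. It was at 447 FPKM in FSS cells and 24.6 FPKM in static cells, a log2 ratio of 4.13 at rank 6 of 11221. By level it was at rank 85 in FSS cells and 2405 in static cells. Transcript MT1X-201 carried 99.9% of it in FSS and 99.1% in static cells. MT1X-201 overlaps AC026461.1, a noncoding gene on the same strand that was not analysed here, and their reads cannot be told apart where the sequences coincide.

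MT1E (ENSG00000169715.14_2) and MT1F (ENSG00000198417.6_2), both functional MT1 genes, were low in static cells and above 10 FPKM in FSS cells. MT1E was at 43.6 FPKM in FSS cells and 1.69 FPKM in static cells, a log2 ratio of 4.05 at rank 8. Its transcript MT1E-201 held 88.3% of the FSS level, and MT1E-203 was at 3.78 FPKM in FSS cells and listed at 0 in static cells. MT1F was at 15.7 FPKM in FSS cells and 0.376 FPKM in static cells, a log2 ratio of 3.60 at rank 15. The static level of MT1F is below the added 1 FPKM and that of MT1E not far above it, so the fold depends on it, being 16.5 for MT1E and 12.1 for MT1F with it, and 25.7 for MT1E and 41.7 for MT1F as plain ratios.

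MT1G (ENSG00000125144.13_4) and MT1B (ENSG00000169688.10_3) were the lowest of the family in both libraries. MT1G was at 1.43 FPKM in FSS cells and MT1B at 0.642 FPKM in FSS cells, and both were listed at 0 in static cells, so no fold is given. Multiplied by transcript length, which is 406 bases for MT1G-202 and 380 bases for MT1B-201 in GENCODE 29, these FSS levels come to 0.582 and 0.244 fragments per 1000000 mapped. The same product over the family was 809 fragments per 1000000 in FSS cells and 130.5 in static cells.

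The makeup of the family differed between the libraries. MT2A held 58.8% of the summed FPKM in FSS cells and 84.9% in static cells, and MT1X held 36.2% in FSS cells and 13.9% in static cells. MT1E held 3.53% in FSS cells and 0.956% in static cells. Per FPKM of MT2A, the MT1 genes together had 0.701 FPKM in FSS cells and 0.177 FPKM in static cells. The MT1 genes were thus closer to MT2A in level in FSS cells, while the order MT2A, MT1X, MT1E, MT1F held in both libraries.

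Reads can be shared within the family. Of all 50-base windows in GENCODE 29 transcripts, 4.88% of those of MT2A-201 occurred in another metallothionein gene or pseudogene, as did 64 of the 401 of MT1X-201, 5.34% of those of MT1E-201, 3.59% of those of MT1F-201 and 20.2% of those of MT1G-202. Over 100-base windows the share was 0 for each of them. For MT1X-201, 45.1% of the 50-base windows occurred in AC026461.1 or another gene, and 19.1% of the 100-base windows in AC026461.1. The MT1B-201 windows found elsewhere, 21.8% at 50 bases, lay in AC026461.2, a noncoding gene on its strand that was not analysed here. Read length was not given in the sources used here, and the family sum is given because it depends less than single members on how reads are split. SLC30A1-201 had 0 shared windows.

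**Figure D3:**
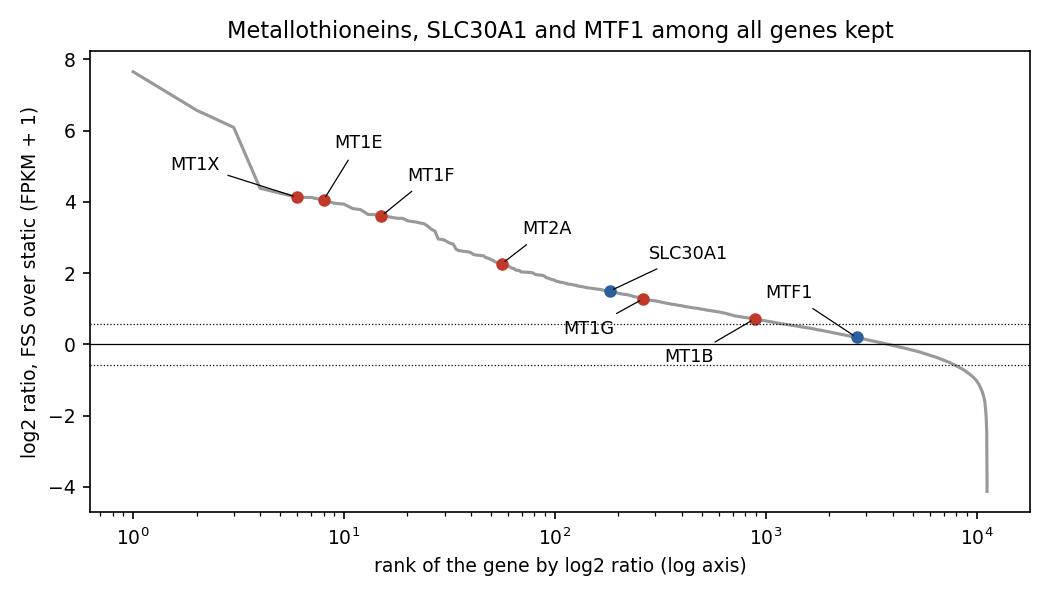
Log2 ratio of FPKM + 1, FSS over static, for 11221 genes against their rank on a log axis, with metallothioneins in red, SLC30A1 and MTF1 in blue, and dotted lines at 1.5-fold. MT1X, MT1E and MT1F stand at ranks 6, 8 and 15, MT2A at 56, SLC30A1 at 182 and MTF1 at 2703.

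MTF1 (ENSG00000188786.9_2), the activator, was nearly level. It was at 4.04 FPKM in FSS cells and 3.41 FPKM in static cells, a log2 ratio of 0.19 (0.43 centred), both within 1.5-fold. The transcript says nothing of the zinc-bound state or location of the protein, which were not measured. Among 10 genes that are known to act at metallothionein promoters, MTF1 included, 1 was at least 1.5-fold higher and 1 lower. Of all genes 10.5% were higher and 29.5% lower. With centring the counts among the 10 were 3 and 0, beside 2002 and 2012 of all 11221 genes. The median log2 ratio of the 10 was -0.15, beside -0.25 for all genes. NFE2L2, which encodes the oxidant-responsive factor NRF2, was the higher one, at 46.4 FPKM in FSS cells and 16.5 FPKM in static cells. USF2, an E-box binding factor, was the lower one, at 31.8 FPKM in FSS cells and 49.8 FPKM in static cells, a log2 ratio of -0.63 (-0.40 centred). SP1, a factor of GC-rich promoters, had a log2 ratio of -0.55, and the acetyltransferase genes CREBBP and EP300 had 0.50 and 0.41. NR3C1, which encodes the glucocorticoid receptor, was at 9.67 FPKM in FSS cells and 12.5 FPKM in static cells.

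SLC30A1 (ENSG00000170385.9_2), the exporter, was at 79.0 FPKM in FSS cells and 27.4 FPKM in static cells. The plain ratio was 2.89, and the log2 ratio, 1.73 when centred, was at rank 182. It had 1 listed transcript, and by level it was at rank 621 in FSS cells and 2143 in static cells. It was the most abundant of the 7 SLC30 genes measured in both libraries.

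The zinc transporters were compared by family. Most SLC30 (ZnT) proteins lower zinc in the cytosol, by export or by loading of vesicles, and the SLC39 (ZIP) proteins raise it. Of 7 SLC30 genes, 2 were higher by 1.5-fold or more and 0 lower, beside 10.5% higher and 29.5% lower among all genes. SLC30A1, a member of the set chosen by this same contrast, was 1 of the 2. Centred, the counts were 3 and 0, beside 2002 and 2012 of all 11221 genes. The median of the SLC30 genes was 0.06 on the log2 scale. SLC30A7, a transporter of the Golgi and secretory vesicles, was at 14.8 FPKM in FSS cells and 4.46 FPKM in static cells, a log2 ratio of 1.54. SLC30A6, a Golgi partner of SLC30A5, was at 5.22 FPKM in FSS cells and 3.21 FPKM in static cells, and SLC30A5 itself at 19.1 FPKM in FSS and 18.3 FPKM in static cells. The rest were on the lower side within 1.5-fold, with log2 ratios of -0.50 for SLC30A9, -0.50 for SLC30A4 and -0.31 for SLC30A3.

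Of 10 SLC39 genes 1 was higher and 1 lower, beside 10.5% higher and 29.5% lower among all genes. The 1 of 10 that was higher is close to that 10.5%. Both counts were the same when centred, beside 2002 and 2012 of all 11221 genes. The median of the SLC39 genes was -0.15 on the log2 scale. SLC39A10, a plasma membrane importer that MTF1 is known to repress in mouse and zebrafish, was at 16.1 FPKM in FSS cells and 48.9 FPKM in static cells, a log2 ratio of -1.54 (-1.31 centred). The difference lay in transcript SLC39A10-201, at 8.99 FPKM in FSS cells and 46.9 FPKM in static cells, whereas SLC39A10-202 was at 5.99 FPKM in FSS cells and 1.92 FPKM in static cells. SLC39A14, an importer of zinc and iron that is induced by inflammatory signals in liver, was the higher gene, at 46.6 FPKM in FSS cells and 29.4 FPKM in static cells, a log2 ratio of 0.65. SLC39A7, which releases zinc from the endoplasmic reticulum and was the most abundant SLC39 gene, was at 58.0 FPKM in FSS cells and 75.9 FPKM in static cells. The other 7 genes (SLC39A1, SLC39A3, SLC39A6, SLC39A8, SLC39A9, SLC39A11 and SLC39A13) had log2 ratios between -0.46 and 0.14.

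**Figure D4:**
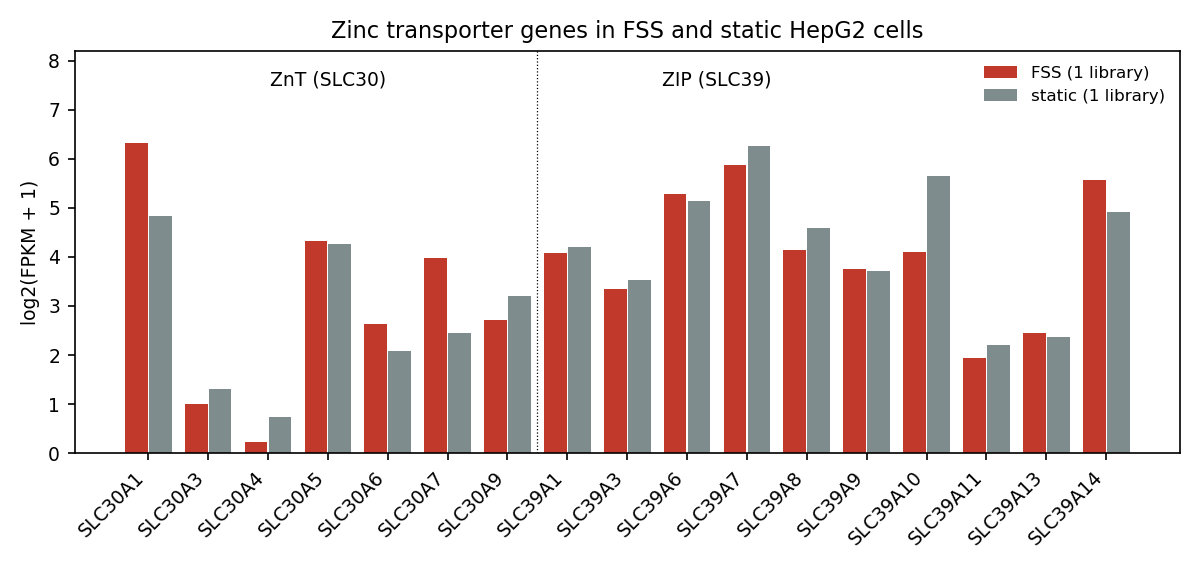
Level of 17 zinc transporter genes as log2(FPKM + 1), SLC30 left and SLC39 right of the dotted line, with FSS (red) left of static (grey) and 1 library each. SLC30A1 is higher in FSS, at 79.0 FPKM against 27.4 FPKM in static cells, as is SLC30A7, with a log2 ratio of 1.54, and SLC39A10 is lower, with -1.54.

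Genes outside the family that MTF1 is known to control in mouse or in human cells were compared next. Of 9 such genes 3 were higher by 1.5-fold or more (SLC30A1, GCLC and PGF) and 3 lower (SLC39A10, CSRP1 and CEBPA). SLC30A1 belongs to the set that was chosen by this same contrast, and PGF reached 0.5 FPKM only in the FSS library. Nothing is therefore read from the count of 3 higher genes. Among all genes 10.5% were higher and 29.5% lower. The counts of 3 and 3 also held when centred, beside 2002 and 2012 of all 11221 genes. SLC39A10 is the gene named above as repressed by MTF1. The median of the 9 genes was -0.28 on the log2 scale. GCLC, the catalytic subunit of glutamate-cysteine ligase, which makes the precursor of glutathione, and an MTF1 target in mouse, was at 25.9 FPKM in FSS cells and 8.21 FPKM in static cells. CSRP1, a LIM domain protein gene known as an MTF1 target in mouse, was at 39.5 FPKM in FSS cells and 78.4 FPKM in static cells. CEBPA, a liver-enriched transcription factor gene, was at 0.755 FPKM in FSS cells and 2.16 FPKM in static cells, and PGF, which encodes placental growth factor, at 1.02 FPKM in FSS cells and 0.278 FPKM in static cells.

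Metallothioneins also bind copper, and copper handling genes were compared for that reason. Of 14 measured, 2 were higher by 1.5-fold or more and 4 lower, beside 10.5% higher and 29.5% lower among all genes. When centred, 3 were higher and 1 lower, beside 2002 higher and 2012 lower of all 11221 genes. The median of the copper handling genes was -0.05 on the log2 scale. SLC31A1, the main copper importer of the plasma membrane, was at 29.2 FPKM in FSS cells and 18.4 FPKM in static cells, and its relative SLC31A2 at 4.84 FPKM in FSS cells and 2.42 FPKM in static cells. SCO2 and SCO1, which deliver copper to cytochrome c oxidase, were among the 4 lower genes, SCO2 at 6.24 FPKM in FSS cells and 13.5 FPKM in static cells, and SCO1 with a log2 ratio of -0.81. The others were CCS, the copper chaperone of superoxide dismutase, and STEAP4, a metalloreductase gene, with log2 ratios of -0.79 and -0.62. STEAP4 was low, at 0.0664 FPKM in FSS cells and 0.638 FPKM in static cells, little above the 0.5 FPKM required. Of the 4 lower genes only SCO2 stayed past 1.5-fold after centring.

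The metallothionein genes lie side by side on chromosome 16, and the genes on either side were compared. In the order of GENCODE 29 the genes compared run CES1, GNAO1, NUDT21, OGFOD1, BBS2, then MT2A, MT1E, MT1B, MT1F, MT1G and MT1X, then NUP93, SLC12A3, HERPUD1 and NLRC5. Of the 9 flanking genes 1 was higher by 1.5-fold or more and 4 lower, beside 10.5% higher and 29.5% lower among all genes. After centring the counts were 1 and 2, beside 2002 and 2012 of all 11221 genes. The median of the flanking genes was -0.35 on the log2 scale, beside -0.25 for all genes. The nearest of them were BBS2, a gene of the ciliary BBSome, at 2.09 FPKM in FSS cells and 5.10 FPKM in static cells, and NUP93, a nuclear pore gene, at 32.2 FPKM in FSS cells and 41.4 FPKM in static cells. The next gene, SLC12A3, which encodes a sodium chloride cotransporter, was at 2.20 FPKM in FSS cells and 25.8 FPKM in static cells, a log2 ratio of -3.06. HERPUD1, a gene of endoplasmic reticulum protein degradation, was at 17.3 FPKM in FSS cells and 5.74 FPKM in static cells, a log2 ratio of 1.44. CES1 and GNAO1, both among the 4 lower genes, were under 1 FPKM in both libraries and reached 0.5 FPKM only in static cells. Their log2 ratios were -0.66 and -0.73, while NUDT21, NLRC5 and OGFOD1 had log2 ratios of -0.23, -0.29 and 0.34. With a minimum of 5 FPKM the count of lower flanking genes was 2.

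**Figure D5:**
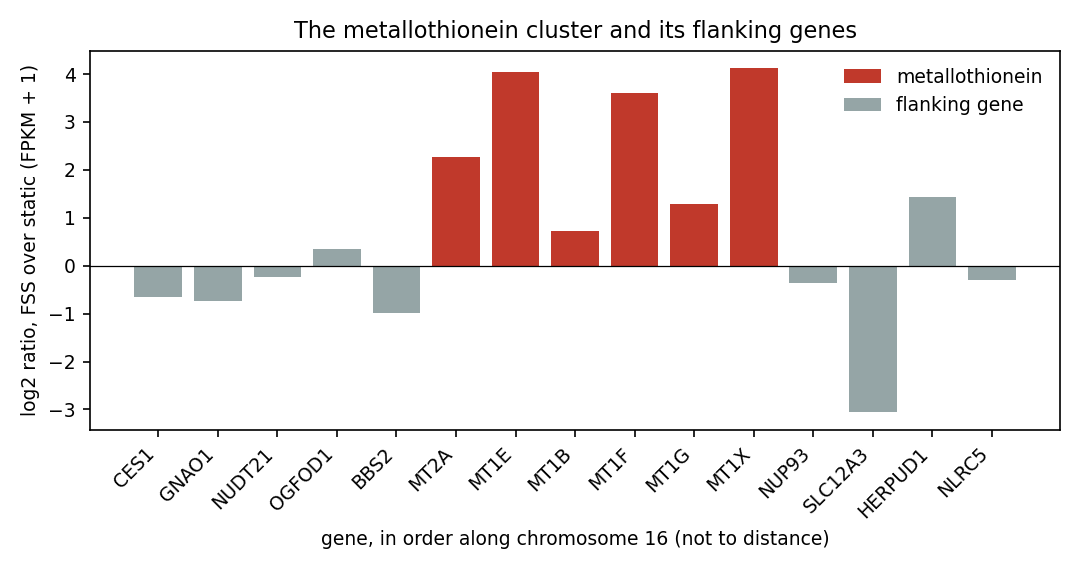
Log2 ratio of FPKM + 1, FSS over static, for 6 metallothioneins (red) and 9 flanking genes (grey) in their order along chromosome 16, not drawn to distance. The red bars run between 0.72 for MT1B and 4.13 for MT1X, and the grey bars between -3.06 for SLC12A3 and 1.44 for HERPUD1.

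The genes with the log2 ratio closest to the 2.79 of the family sum, among genes with a mean of at least 5 FPKM, were MAFF (2.88), THBS1 (2.67), BAG3 (2.95), EPGN (2.63) and FOSL1 (2.96). The likeness is the distance between log2 ratios over 2 libraries. A ratio at least as high as that of the family sum was found for 33 of 11221 genes, with MT1X, MT1E and MT1F among them. BAG3, a co-chaperone gene, was at 285 FPKM in FSS cells and 36.0 FPKM in static cells, and MAFF, a small Maf transcription factor gene, at 65.2 FPKM in FSS cells and 8.02 FPKM in static cells.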

How the data were processed

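Total RNA of HepG2 cells was sequenced on an Illumina HiSeq instrument after FSS for 8 h or static culture, with 1 library per group, each a mix of 3 replicates. The authors deposited FPKM per transcript, by the study's methods from StringTie and Ballgown. The submitters' processing notes also name cutadapt, HISAT2 2.0.5, STAR 2.5.2b and hg19. For strand, RNA selection and depth nothing was stated, and 0 value columns were left unmapped.

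FPKM was summed per gene symbol, genes with at least 0.5 FPKM in a library were kept, and log2 ratios used a pseudocount of 1 and a mark of 1.5-fold. No test was possible with 1 library per group. Transcript lengths and gene order came from GENCODE 29, in which 98.2% of transcript names matched, and promoters from RefSeq. Coordinates of the deposited build were not used. A gene flanking the cluster is not reported here. The members and the 10 lists were chosen with earlier results of these data known. Genes were named by rule: the members, all measured zinc transporters, the flanking genes compared, cell type markers, in each other list the 6 (or fewer) farthest from a log2 ratio of 0, and the 5 nearest to the family sum. The transcripts of SLC39A1, SLC39A9 and SLC39A10 were picked once their values were known. The counting step was tested on simulated data. Alternatives were other pseudocounts, centring, rescaling, the highest transcript, other filters and a fold of 2. Software was matplotlib 3.10.9, pandas 2.3.3 and numpy 2.4.6 under Python 3.11.15.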

Additional observations from a re-analysis of the deposited data

How the results depend on the processing

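The summed metallothionein log2 ratio of 2.79 stayed on the higher side under each alternative run. It was 3.02 after centring, 2.81 after rescaling, 2.78 with the highest transcript of each gene, 2.80 with a pseudocount of 0.1 and with none, and 2.76 with a pseudocount of 5. In alternatives added after seeing the data it was 4.20 without MT2A and 2.36 without MT1X. The count of 7 higher members became 6 at a fold of 2, and 5 with a pseudocount of 5 or a minimum of 5 FPKM, and 0 were lower in each. No gene with a longer MT1 name was analysed here, so that alternative gave no value. The low members moved most, with log2 ratios between 0.17 and 2.89 for MT1B, 0.36 and 3.94 for MT1G, and 1.94 and 5.38 for MT1F, against 2.23 to 2.49 for MT2A and 3.93 to 4.36 for MT1X. Of all genes 1180 were higher and 3310 lower, which became 2002 and 2012 after centring, 484 and 1278 at a fold of 2, and 664 and 1609 with a pseudocount of 5. The 6 lists of zinc, copper, MTF1 and flanking genes held 55 measured genes outside the members. Of these 8 were higher and 12 lower, beside 10.5% and 29.5% of all genes. The counts turned to 12 and 6 after centring, and became 4 and 2 at a fold of 2, and 5 and 4 with a pseudocount of 5. No paired analysis was possible because each group has 1 library.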

Other observations

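Some zinc transporter genes with little difference in their summed FPKM had transcripts on both sides. SLC39A1-203 was at 4.95 FPKM in FSS cells and 0.634 FPKM in static cells, and SLC39A1-201 at 0.0296 FPKM in FSS cells and 4.14 FPKM in static cells. SLC39A9-201 was at 10.2 FPKM in FSS cells and 5.40 FPKM in static cells, and SLC39A9-202 at 0.293 FPKM in FSS cells and 4.49 FPKM in static cells. Splitting reads among transcripts of a gene is an estimate, and its error is not in the deposited values.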
